A study of Homo sapiens with 8 samples.

Results

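Binding of HoxC5 and Pbx4 was examined at 9 genes whose products hold back TGF-β signalling in PC-3, an established human prostate cancer cell line. The genes were SKI, SKIL, TGIF1, TGIF2, SMURF1, SMURF2, BAMBI, PMEPA1 and LEMD3, 9 of the 20163 protein-coding genes of the annotation, and all 9 were found in it. They were listed by what their proteins do and not by a measured value, although earlier results of these data were known. The study itself drew attention to the TGF-β pathway from the endogenous HoxC5 peaks, so the endogenous peaks near these genes are not independent evidence of a link to the pathway. It also reported, by RT-PCR, that genes of this pathway were activated in PC-3 cells overexpressing HOXC5 and in embryonic stem cells during neural induction. ChIP-Seq with an anti-HoxC5 antibody gave 2 libraries from unmodified PC-3 cells (endogenous HoxC5, replicates 1 and 2) and 1 library from PC-3 cells overexpressing Flag-tagged HoxC5. ChIP-Seq with an anti-Pbx4 antibody gave 1 library from PC-3 cells overexpressing Pbx4, and 4 input libraries were not used here. There was 1 peak list per library, with 2525 peaks for endogenous replicate 1, 170 for replicate 2, 67196 for overexpressed HoxC5 and 153620 for overexpressed Pbx4. The overexpressed HoxC5 list stopped at a lower q-value, the false discovery rate of a peak (highest q 0.00997), than the Pbx4 list (0.0490) and the endogenous lists (0.0398 and 0.0499). With q of at most 0.01 in all lists, 217 of the 218 Pbx4 peaks described below and all the endogenous ones were left. A peak was counted for a gene when its summit, the position of highest signal, lay in the gene body or within 100 kb of one of its transcription start sites (TSSs) on hg19. Each overexpression was measured in 1 library and the endogenous lists were very unequal, so no difference between conditions could be tested and the values below are descriptions. The methods give an average depth of 20000000 to 30000000 reads, but not how many a given library had, and a gene without a peak is one where none was called, not one shown to be unbound.

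TGF-β ligands signal through receptor kinases that phosphorylate SMAD proteins, which then enter the nucleus and activate genes with SMAD4. The pathway is held in check at several levels. SKI and SKIL (also known as SnoN) bind SMADs and recruit repressor complexes, and TGIF1 and TGIF2 are SMAD corepressors of the TALE homeodomain class, to which the Pbx and Meis proteins also belong. SMURF1 and SMURF2 are ubiquitin ligases that mark SMADs and receptors for degradation, BAMBI is a receptor-like protein without a kinase domain, PMEPA1 is a membrane protein that sequesters SMADs, and LEMD3 (MAN1) binds SMADs at the inner nuclear membrane. Hox proteins often bind DNA together with Pbx and Meis proteins.

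The sites where endogenous HoxC5 was found together with both overexpressed proteins join endogenous replicate 1 to both overexpressed lists. Those also present in replicate 2 join all 4 lists. The sequences of 4 of the sites are given here. Each is the interval common to all the lists with a peak there, read from the forward strand of GRCh37 (hg19). Host genes were matched by their whole spans, and their exons were not checked. In the labels of these 4 intervals, an intron thus means only that the interval overlaps that gene. The SKIL interval also overlapped a protein-coding gene without a symbol, which its label leaves out. Capitals mark matches on either strand to the words sought, which are the AP-1 words TGACTCA and TGAGTCA, the Hox-Pbx words TGATTGAT and TGATTAAT, the Hox words TAATTA and TAATGA, the Meis word TGACAG, the SMAD word GTCTAGAC, the forkhead word GTAAACA and the GC box CCCCGCCC. None of these words is contained in another. The first pair of sequences comes from the sites present in all 4 lists and the other sequences from sites present in endogenous replicate 1 and both overexpressed lists.
SMURF2 site in 4 lists, chr17:62703412-62703546, between genes: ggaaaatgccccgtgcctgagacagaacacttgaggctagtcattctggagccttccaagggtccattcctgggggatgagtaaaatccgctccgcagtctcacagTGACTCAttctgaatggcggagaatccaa
SKI site in 4 lists, chr1:2139847-2139990, in an intron of FAAP20: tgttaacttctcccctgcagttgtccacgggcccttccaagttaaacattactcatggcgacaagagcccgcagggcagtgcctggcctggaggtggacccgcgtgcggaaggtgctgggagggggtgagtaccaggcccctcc
SMURF2 site in 3 lists, chr17:62728857-62729028, between genes: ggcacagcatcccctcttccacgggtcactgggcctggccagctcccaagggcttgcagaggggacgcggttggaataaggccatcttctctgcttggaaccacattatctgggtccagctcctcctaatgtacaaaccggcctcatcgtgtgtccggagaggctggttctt
SKIL site in 3 lists, chr3:170187119-170187355, in introns of SLC7A14 and SLC7A14-AS1: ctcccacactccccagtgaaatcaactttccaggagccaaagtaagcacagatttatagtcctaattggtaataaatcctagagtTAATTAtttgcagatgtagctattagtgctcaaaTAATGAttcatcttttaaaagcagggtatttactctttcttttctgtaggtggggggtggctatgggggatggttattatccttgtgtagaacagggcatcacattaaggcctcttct
Among the 4 intervals shown, the AP-1 word was found at SMURF2, the Hox words at SKIL, and none of the words in the SKI interval of 144 bp or the second SMURF2 interval of 172 bp. Of the summits at the first SMURF2 site, only that of replicate 2 had the AP-1 word within 50 bp. No Hox-Pbx word lay in any of the 4 intervals.

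Endogenous HoxC5 peaks were found near 5 of the 9 genes in replicate 1 (8 peaks) and near 2 in replicate 2 (2 peaks). By the same rule, 26.3% of all protein-coding genes had a peak in replicate 1 and 2.36% in replicate 2. The corepressor genes SKI, SKIL, TGIF1 and TGIF2 and the ligase gene SMURF2 had them, while SMURF1, BAMBI, PMEPA1 and LEMD3 had none in either replicate. A replicate 1 peak that overlapped a replicate 2 peak was found at SKI and at SMURF2, against 2.01% of all protein-coding genes. For only 4 of the 8 replicate 1 peaks and 1 of the 2 replicate 2 peaks was the nearest protein-coding TSS that of the 9 genes. Fold enrichment, the authors' ratio of ChIP signal to local background, had a median of 4.97 at the 8 peaks and 4.98 over the whole replicate 1 list. The 2 replicate 2 peaks were 6.35-fold at SKI and 4.36-fold at SMURF2, where the median of that list was 6.23.

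The overexpressed lists were far longer, and all 9 genes had peaks in both. There were 117 peaks of overexpressed HoxC5 and 218 of overexpressed Pbx4 in the 2208 kb covered by the 9 windows. However, 92.8% of all protein-coding genes had a HoxC5 peak and 96.1% a Pbx4 peak by this rule, so the presence of a peak did not distinguish these genes. Their density varied more. HoxC5 peaks ranged from 1.95 per 100 kb at TGIF2 to 9.84 at TGIF1, and Pbx4 peaks from 3.98 per 100 kb at SKI to 17.2 at TGIF1, where the medians over all protein-coding genes were 3.28 and 6.04. TGIF1, SMURF1, SMURF2 and PMEPA1 lay above the upper quartile of all genes in both lists, BAMBI in the Pbx4 list only, and the other 4 genes lay between the quartiles in both lists.

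**Figure D1:**
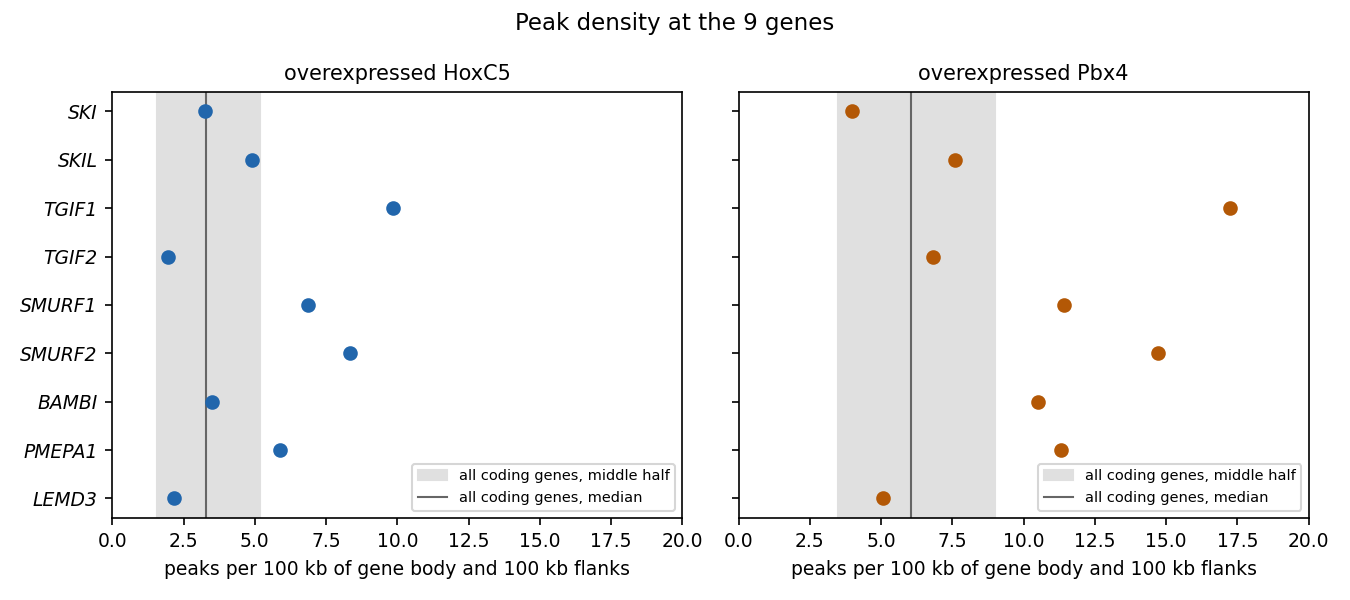
Peaks of overexpressed HoxC5 (left) and overexpressed Pbx4 (right) per 100 kb of each gene's window, the gene body and 100 kb around its TSSs. Each point is 1 gene in 1 library, the line is the median of all 20163 protein-coding genes and the grey band spans their lower to upper quartile (1.58 to 5.18 for HoxC5, 3.50 to 9.0 for Pbx4). TGIF1 and SMURF2 stand farthest to the right in both lists.

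SKI, the founding member of the Ski corepressor family, lies at chr1:2158827-2241652 on the plus strand. Endogenous replicate 1 had 2 peaks there and replicate 2 had 1, against 9 of overexpressed HoxC5 and 11 of Pbx4. In the overexpressed lists its density was higher than that of 49.8% of protein-coding genes for HoxC5 and of 28.9% for Pbx4, whereas its endogenous density was above that of 93.5% of genes in replicate 1 and 98.0% in replicate 2, where most genes had no peak. The site in all 4 lists lay 18.9 kb upstream of the SKI TSS and inside FAAP20, a Fanconi anaemia gene whose own TSS was the nearest. Its summit in replicate 2 was within 1 kb of a FAAP20 TSS, so the site lay by the start of that gene. The fold enrichment of this site was 5.42 in replicate 1, 6.35 in replicate 2, 14.6 in overexpressed HoxC5 and 7.02 in Pbx4. In the overexpressed HoxC5 list it was the highest peak near SKI and among the top 2.98% of the list by fold, whereas in the Pbx4 list it ranked at 42.0%. The other endogenous peak, at 32.4 kb upstream with a fold of 4.97, was in replicate 1 and overlapped no peak of another list. It ended at chr1:2126544, and a peak of overexpressed HoxC5 of 3.20-fold began close by, at chr1:2126577. The highest Pbx4 peak, of 10.2-fold, lay 46.7 kb upstream in PRKCZ, a protein kinase C gene, and overlapped a HoxC5 peak of 6.76-fold.

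SKIL, which encodes the SKI relative SnoN, lies at chr3:170075130-170114623 on the plus strand. It had 2, 0, 11 and 17 peaks in endogenous replicate 1, endogenous replicate 2, overexpressed HoxC5 and overexpressed Pbx4. It was the only one of the 9 genes with an endogenous peak within 1 kb of a TSS, where 3.38% of all protein-coding genes had such a peak in replicate 1 and 0.208% in replicate 2. This peak, at chr3:170075189-170075402 in an untranslated part of an exon, had its summit 104 bp from the nearest SKIL TSS and a fold of 5.23. It overlapped a peak of overexpressed HoxC5 of 8.60-fold, while the nearest Pbx4 summit to that peak was 10677 bp away. The second endogenous peak, 88.1 kb from the nearest SKIL TSS and downstream of the gene, was 3.67-fold, and the peaks over it were 9.27-fold for overexpressed HoxC5 and 5.75-fold for Pbx4. It lay in SLC7A14, and the nearest TSS was that of CLDN11. Of its 2 endogenous peaks, 1 thus lay at the start of SKIL without Pbx4 and the other far beyond its end with both overexpressed proteins. Sharing was not confined to that site, as 6 of the 11 overexpressed HoxC5 peaks overlapped Pbx4.

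TGIF1, a TALE homeodomain corepressor, lies at chr18:3411606-3459976 on the plus strand, with no TSS of another protein-coding gene in its window. It had 1, 0, 24 and 42 peaks in the 4 lists in the same order. Its density exceeded that of 96.7% of protein-coding genes for HoxC5 and of 98.4% for Pbx4, the highest of the 9 in both. The endogenous peak lay 2.26 kb upstream of the TSS at a fold of 3.89, with 8.08-fold over it in overexpressed HoxC5 and 9.99-fold in Pbx4. Of the 24 HoxC5 peaks, 13 lay in the gene and 8 lay within 1 kb of a TSS. TGIF1 has 22 annotated TSSs along its body, and none of these 8 peaks was within 1 kb of the outermost 5′ end. The highest HoxC5 peak, of 12.7-fold, was in an untranslated part of an exon 48.1 kb from the 5′ end, under a Pbx4 peak of 13.7-fold. The highest Pbx4 peak of the 9 genes, of 19.8-fold and in the top 0.738% of its list, lay 90.0 kb upstream of TGIF1 in a long non-coding RNA gene, nearest to the TSS of MYL12B, and overlapped a HoxC5 peak of 10.0-fold.

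TGIF2, the paralogue of TGIF1, lies at chr20:35201891-35222353 on the plus strand in a crowded region, with TSSs of 5 other protein-coding genes in its window. It had 1, 0, 4 and 14 peaks. Its density of HoxC5 peaks was above that of 28.8% of protein-coding genes, the lowest of the 9, and its density of Pbx4 peaks above that of 56.9%. None of the 4 HoxC5 peaks was nearest to a TGIF2 TSS, and the closest lay 16.8 kb away. The endogenous peak, of 4.27-fold, lay 34.4 kb from the nearest TGIF2 TSS in SLA2, an adaptor gene, nearer to the TSS of RAB5IF, and had no counterpart in the other lists. One Pbx4 peak lay inside TGIF2, in an intron 6.70 kb from a TSS, and at 11.6-fold it was the highest Pbx4 peak of this gene. The TALE corepressor paralogues thus stood at opposite ends of the 9 genes in HoxC5 peak density.

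**Figure D2:**
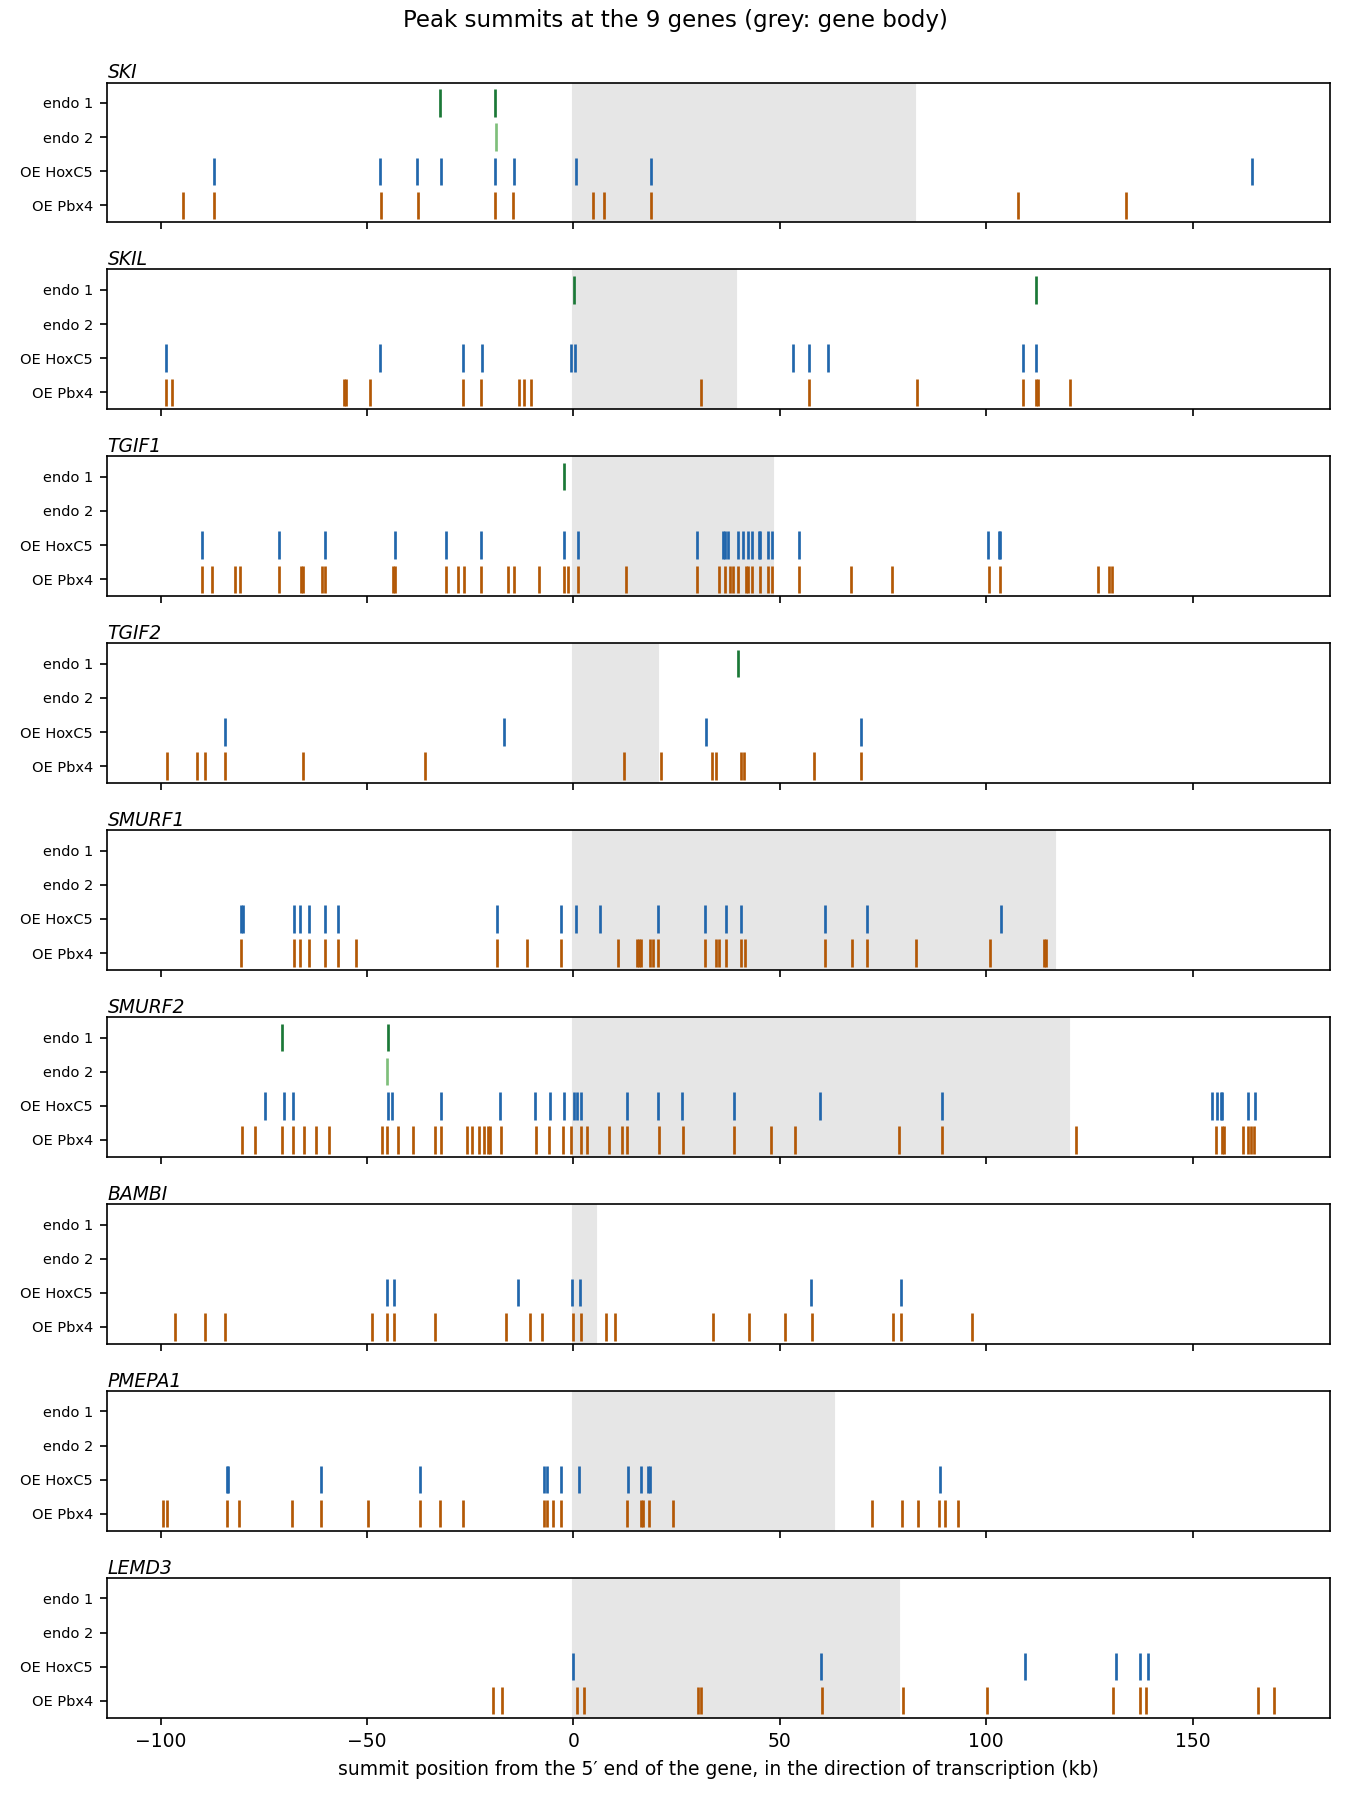
Summits of all peaks at the 9 genes, each as a vertical line at its distance in kb from the gene's 5′ end, with transcription to the right and the gene body in grey. The rows are endogenous HoxC5 replicates 1 and 2 (endo 1, endo 2), overexpressed HoxC5 (OE HoxC5) and overexpressed Pbx4 (OE Pbx4). The endogenous lines stand at 5 genes and mostly outside the gene bodies, and most of the 13 HoxC5 lines in the TGIF1 body crowd towards its end.

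SMURF1, a HECT-type ubiquitin ligase, lies at chr7:98625063-98741731 on the minus strand. It had no endogenous peak, 18 overexpressed HoxC5 peaks and 30 Pbx4 peaks. Its density was above that of 87.4% of protein-coding genes for HoxC5 and 87.2% for Pbx4. The highest HoxC5 peak, of 11.4-fold, lay in an intron 8.40 kb from the nearest SMURF1 TSS and overlapped a Pbx4 peak of 8.77-fold. The highest Pbx4 peak, of 15.7-fold, lay 80.5 kb upstream in KPNA7, an importin gene, and overlapped a HoxC5 peak of 10.1-fold. Of the 30 Pbx4 peaks, 20 lay within the gene, more than at any other of the 9 genes.

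SMURF2, the paralogue of SMURF1 on the minus strand at chr17:62538400-62658425, had peaks in every list: 2 in endogenous replicate 1, 1 in replicate 2, 25 in overexpressed HoxC5 and 44 in Pbx4. Its density was above that of 93.5% of protein-coding genes for HoxC5 and 95.6% for Pbx4. The site in all 4 lists lay 45.0 kb upstream of the gene in no annotated gene, and SMURF2 had the nearest protein-coding TSS. Its fold was 7.65 in replicate 1, 4.36 in replicate 2, 10.3 in overexpressed HoxC5 and 18.5 in Pbx4. By fold it ranked at 8.24% from the top in replicate 1 and at 85.9% in replicate 2, and at 1.18% in the Pbx4 list and 11.8% with overexpressed HoxC5. It was the highest Pbx4 peak of SMURF2. In overexpressed HoxC5 a different site was highest, 17.7 kb upstream, at 15.9-fold, and it overlapped a Pbx4 peak of 12.8-fold. Another site, 70.5 kb upstream, was shared by replicate 1 (4.97-fold), overexpressed HoxC5 (9.52-fold) and Pbx4 (10.4-fold). Both endogenous sites of SMURF2 thus lay upstream of the gene.

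The remaining 3 genes, whose proteins sit in membranes, had no endogenous peak. BAMBI, at chr10:28966439-28971861 on the plus strand and the shortest of the 9, had 7 HoxC5 and 21 Pbx4 peaks, densities above those of 53.9% and 83.2% of protein-coding genes. Its highest HoxC5 peak (11.4-fold) lay 57.6 kb downstream and overlapped a Pbx4 peak of 9.77-fold, and its highest Pbx4 peak (13.1-fold) lay 96.6 kb downstream without HoxC5. PMEPA1, an androgen- and TGF-β-responsive gene at chr20:56223448-56286592 on the minus strand, had 13 HoxC5 and 25 Pbx4 peaks, densities above those of 80.7% and 86.8% of genes. It carried the highest HoxC5 peak of all 9 genes, 18.0-fold and in the top 1.14% of the list, in an intron 6.46 kb from the nearest TSS, with a Pbx4 peak of 11.2-fold over it. Its highest Pbx4 peak, of 17.7-fold, lay 4.89 kb upstream of the gene and had no HoxC5 peak. LEMD3, at chr12:65563363-65642135 on the plus strand, had 6 HoxC5 and 14 Pbx4 peaks, densities above those of 33.3% and 40.4% of genes. The highest HoxC5 peak (9.79-fold) lay downstream of LEMD3 in MSRB3, a methionine sulfoxide reductase gene, and the highest Pbx4 peak (13.0-fold) lay 17.4 kb upstream without HoxC5.

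Most of the peaks lay away from the starts of the genes. Of the 117 HoxC5 peaks, 41 lay inside the 9 genes (35 in introns), 51 upstream and 25 downstream, and of the 218 Pbx4 peaks 62 lay inside (54 in introns), 103 upstream and 53 downstream. Within 1 kb of a TSS of the 9 genes lay 18 HoxC5 peaks (15.4%, 95% Clopper-Pearson interval 9.38 to 23.2%) and 14 Pbx4 peaks (6.42%, 3.56 to 10.5%). By any protein-coding TSS, the shares within 1 kb were 26.5% of these HoxC5 peaks and 12.8% of these Pbx4 peaks, beside 23.1% and 8.68% of the whole lists. These intervals, and those below, cover counting error only. The nearest protein-coding TSS belonged to the gene itself for 77 HoxC5 peaks (65.8%) and 146 Pbx4 peaks (67.0%), and for the rest a TSS of a neighbouring gene was nearer. The median fold of the HoxC5 peaks was 6.17, as in the whole list (6.17), and that of the Pbx4 peaks was 7.0 against 6.36 in the whole list.

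At the gene starts themselves, HoxC5 was found at more of the 9 genes than Pbx4, 8 against 5. These counts take any annotated TSS of a gene. With only the outermost 5′ end of each gene, TGIF1 and PMEPA1 dropped out for HoxC5, and SKI and TGIF1 for Pbx4. A HoxC5 peak within 1 kb of a TSS was found at 8 of the 9 genes, all except TGIF2, where 54.9% of all protein-coding genes had one. For Pbx4 there were 5 such genes (SKI, TGIF1, SMURF2, BAMBI and LEMD3), where 41.9% of all protein-coding genes had one. All 5 also had a HoxC5 peak within 1 kb, so 5 of 8 genes with a HoxC5 peak had both (62.5%), close to the 6901 of 11076 (62.3%) over all protein-coding genes. The peaks of both proteins overlapped only at TGIF1 and SMURF2. At BAMBI the HoxC5 peak of 4.91-fold and the Pbx4 peak of 7.10-fold were 85 bp apart, with summits 207 bp from each other. At LEMD3 the nearest Pbx4 summit was 1138 bp from that of the 8.42-fold HoxC5 peak. At SKI, SMURF1 and PMEPA1 the distance was 4220, 3573 and 4468 bp, and the HoxC5 promoter peaks there had folds of 5.53, 5.39 and 5.53. At these genes the HoxC5 peak at the start did not overlap a Pbx4 peak.

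Most of the overlaps at gene starts were at TGIF1. Of its 8 HoxC5 peaks within 1 kb of a TSS, 7 overlapped a Pbx4 peak. Over the whole HoxC5 list, 40.6% of the peaks within 1 kb of any protein-coding TSS did. The 8 peaks are neighbours in 1 gene with 22 annotated TSSs, so they are not independent cases. The highest, of 10.5-fold, had its summit 35 bp from that of a Pbx4 peak of 14.7-fold. At SMURF2 1 of 3 HoxC5 peaks within 1 kb of a TSS overlapped a Pbx4 peak. The highest of the 3 (7.61-fold, summit 52 bp from a TSS) ended 6 bp from a Pbx4 peak of 5.59-fold.

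Across the 9 windows, overlapping peaks of the 4 lists formed 247 sites. Of these, 134 (54.3%) were in the Pbx4 list alone, 78 (31.6%) in both overexpressed lists and 27 (10.9%) in overexpressed HoxC5 alone. The remaining 8 sites held the endogenous peaks: 2 were in all 4 lists, 3 in replicate 1 and both overexpressed lists, 1 in replicate 1 and overexpressed HoxC5, and 2 in replicate 1 alone. Of the 8 replicate 1 peaks, 6 (75%) overlapped an overexpressed HoxC5 peak and 5 (62.5%) a Pbx4 peak, against 76.4% and 70.8% of the whole replicate 1 list. Of the 117 HoxC5 peaks, 89 (76.1%, interval 67.3 to 83.5%) overlapped a Pbx4 peak, against 67.7% of the whole list. Of the 218 Pbx4 peaks, 84 (38.5%, 32.0 to 45.3%) overlapped a HoxC5 peak, against 28.5% of the whole list. The lists share neighbouring peaks within each gene, so these peaks are not independent of each other and the intervals are too narrow to that extent.

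**Figure D3:**
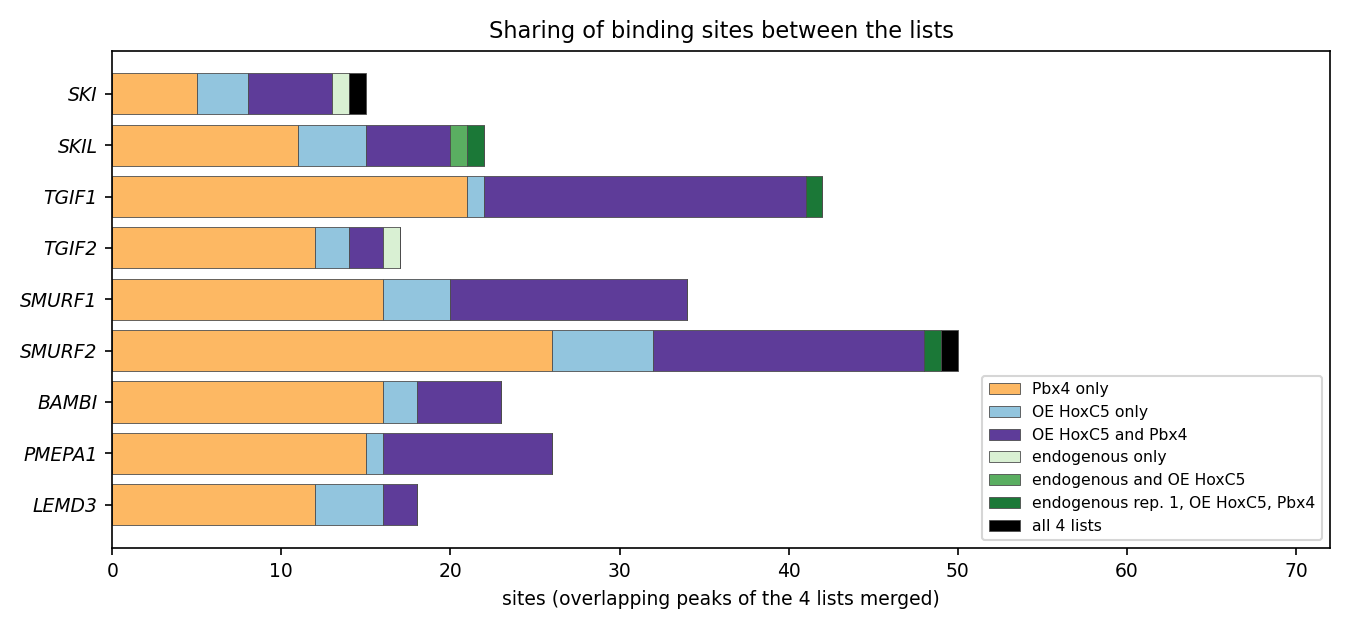
Number of sites at each gene, where overlapping peaks of the 4 lists were merged into 1 site, divided by the lists that had a peak there (OE, overexpressed). Bars start at 0. SMURF2 has the most sites (50) and SKI the fewest (15), and the sites in all 4 lists stand at SKI and SMURF2.

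Sharing was uneven between the genes. At TGIF1 23 of 24 HoxC5 peaks overlapped Pbx4 and at PMEPA1 12 of 13, whereas at LEMD3 2 of 6, at TGIF2 2 of 4 and at SKIL 6 of 11 did. SKI (6 of 9), SMURF1 (14 of 18), SMURF2 (19 of 25) and BAMBI (5 of 7) lay between. Peaks near TSSs and the others gave different shares, in opposite order for the 2 proteins. Of the HoxC5 peaks, 14 of 31 within 1 kb of any protein-coding TSS (45.2%, interval 27.3 to 64.0%) and 75 of the other 86 (87.2%, 78.3 to 93.4%) overlapped Pbx4, against 40.6% and 75.8% over the whole list. HoxC5 peaks that overlapped Pbx4 had a median fold of 6.62 and the 28 that did not had 5.36, again close to the whole list (6.61 and 5.63). For both splits the values at the 9 genes ran in the same order as those of the whole list.

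Sequence words near the summits were counted in the same way. The AP-1 word lay within 50 bp of 21 of 117 HoxC5 summits (17.9%, interval 11.5 to 26.1%) and 47 of 218 Pbx4 summits (21.6%, 16.3 to 27.6%), against 20.5% and 18.5% of the whole lists. HoxC5 peaks with it were found at SMURF2 (6), TGIF1 (5), SMURF1 (5), SKIL (2), BAMBI (2) and TGIF2 (1), and at none of the HoxC5 peaks of SKI, PMEPA1 and LEMD3. The Meis word lay at 4 HoxC5 summits (3.42%, list 7.88%) and 21 Pbx4 summits (9.63%, list 10.4%). The word TAATGA lay at 7 HoxC5 summits (5.98%, list 8.41%) and 16 Pbx4 summits (7.34%, list 7.61%), and TAATTA at 1 of each (0.855%, list 2.01%, and 0.459%, list 1.96%). The GC box lay at 7 HoxC5 summits (5.98%, list 2.75%) and 1 Pbx4 summit (0.459%, list 0.505%), and the forkhead word at 4 and 9 (3.42%, list 3.0%, and 4.13%, list 3.84%). For each of these words in the 2 overexpressed lists the share of the whole list lay inside the interval of the 9 genes.

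The composite Hox-Pbx word and the SMAD word occurred near Pbx4 summits only. The composite Hox-Pbx word lay at 0 of 117 HoxC5 summits (interval 0 to 3.10%, list 1.59%) and at 3 of 218 Pbx4 summits (1.38%, list 1.15%), at BAMBI, PMEPA1 and LEMD3. The palindromic SMAD word, to which activated SMAD3 and SMAD4 bind, lay at 0 HoxC5 summits (list 0.0506%) and at 2 Pbx4 summits (0.917%, interval 0.111 to 3.27%, list 0.0645%), at SMURF1 and LEMD3. The SMAD count rests on 2 peaks and was looked at among 8 words. The 5 words are shown with 11 bases on either side, forward strand of hg19, the word in capitals, because they are the matches to the partner motif and to the pathway's own motif at these genes.
SMURF1 SMAD word, chr7:98640730-98640759, intron: gacctccagttGTCTAGACaggaagtgatt
LEMD3 SMAD word, chr12:65564345-65564374, coding part of an exon: ggctgccgggaGTCTAGACaggagccgaaa
BAMBI Hox-Pbx word, chr10:28932849-28932878, upstream: aggaactcgagTGATTAATgtcattaatat
PMEPA1 Hox-Pbx word, chr20:56313214-56313243, upstream: acttatactgtTGATTGATgattcactgtt
LEMD3 Hox-Pbx word, chr12:65593564-65593593, intron: accaaagagcaTGATTAATggatcatgtgg
None of these 5 Pbx4 peaks overlapped a HoxC5 peak, where 38.5% of the 218 Pbx4 peaks and 28.5% of the whole Pbx4 list did. The folds of the SMAD-word peaks were 4.84 at SMURF1 and 4.75 at LEMD3, both below the Pbx4 list median of 6.36, and those of the Hox-Pbx peaks were 7.94 at BAMBI, 5.47 at PMEPA1 and 7.25 at LEMD3. At LEMD3 the SMAD word lay in the Pbx4 promoter peak described above, 971 bp from a TSS. A match is a description of the letters only and does not show which protein bound.

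**Figure D4:**
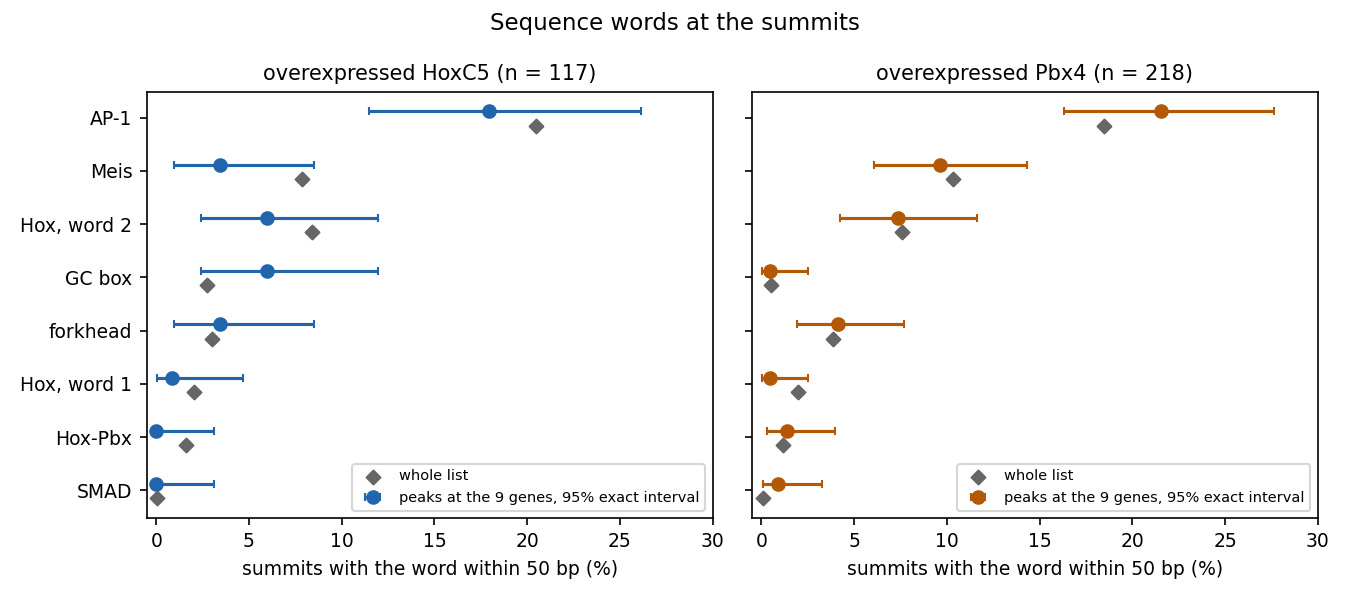
Share of summits with each word within 50 bp, in percent, for overexpressed HoxC5 (left) and Pbx4 (right). Circles are the peaks at the 9 genes with 95% exact intervals, diamonds the whole list, and Hox words 1 and 2 are those ending in TA and GA. The diamonds lie within the intervals for all words but the SMAD word in Pbx4, which rests on 2 summits.

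The other genes of the pathway gave a comparison by the same rule. Of 30 ligand, receptor, SMAD and regulator genes, 11 (36.7%) had a peak in endogenous replicate 1 and 1 (3.33%) in replicate 2, and all 30 had peaks in both overexpressed lists. TGFB2, the gene of a TGF-β ligand, was the 1 gene with replicate 2 peaks (2). A peak within 1 kb of a TSS was found at 4 of the 30 in replicate 1, 23 (76.7%) in overexpressed HoxC5 and 21 (70.0%) in Pbx4, beside 1, 8 and 5 of the 9 brake genes. Median density was 3.92 HoxC5 and 8.05 Pbx4 peaks per 100 kb for the 30 genes, and 4.91 and 10.5 for the 9. Among the groups, median HoxC5 density was 4.47 per 100 kb for 6 ligand genes, 3.30 for 7 receptor genes, 3.29 for 6 receptor-regulated and common SMAD genes and 5.59 for the inhibitory SMAD genes SMAD6 (6.21) and SMAD7 (4.98), the brakes within the SMAD family itself. For 9 other ligase, deubiquitinase and corepressor genes it was 4.22. The ranges of these groups in HoxC5 density overlapped that of the 9 genes (1.95 to 9.84). Median Pbx4 density was 10.5 per 100 kb for the ligand genes, as for the 9 genes. It was 5.77 for the receptor genes and 5.18 for the receptor-regulated and common SMAD genes. For the inhibitory SMAD genes it was 8.43, and for the other ligase, deubiquitinase and corepressor genes 8.54.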

How the data were processed

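ChIP-Seq reads (single-end, 101 bp, with an average depth given in the study's methods) were mapped by the authors to hg19 with BWA-MEM 0.7.0, filtered at a mapping quality of at least 10, cleared of duplicates with SAMtools and called with MACS2 at q of at most 0.05 as stated, although the overexpressed HoxC5 list holds no q above 0.00997. The MACS2 version, control and region filter are not given in the sources used here. The deposited peak lists, 1 per library, hold positions, a score, a fold enrichment (ratio) and the −log10 of both p and q, all made by the authors. The lists hold no read totals, so depth and the precision it gives are unknown, and folds were compared only within a list.

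Summits were assigned with GENCODE release 44 lifted to GRCh37. Shared peaks overlapped by at least 1 bp, and shares have exact Clopper-Pearson intervals at 95%. The text names every endogenous peak, the highest peak of each gene in each overexpressed list and promoter peaks. The sequence of the site shared by 3 lists at TGIF1 is not reported here. The genes, lists and words were chosen with earlier results of these data known, and the word contexts shown were picked after their values were seen. Alternatives were other windows, thresholds, overlaps and list lengths. Counting was tested on simulated data with Python 3.11.15, numpy 2.4.6, pandas 2.3.3 and scipy 1.17.1, and plots used matplotlib 3.10.9.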

Additional observations from a re-analysis of the deposited data

How the results depend on the processing

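Of 82 alternatives computed for 17 results, 47 left the value within its limits and 35 moved it. By nearest protein-coding TSS, 4 replicate 1 peaks at 3 genes and 1 replicate 2 peak at 1 gene remained. At a fold of at least 5, 3 replicate 1 peaks at 3 genes and 1 replicate 2 peak at 1 gene were left, and at −log10 q of at least 5, 5 peaks at 3 genes and 1 peak at 1 gene. A window of 50 kb left 139 Pbx4 peaks. With the overexpressed lists shortened to as many peaks of lowest q as replicate 1 had, 4 HoxC5 peaks at 3 genes (SKI, SMURF2 and PMEPA1) and 2 Pbx4 peaks at 2 genes (TGIF1 and SMURF2) were left, so the counts follow list length. For the shares, only the list searched was shortened in this way, and all peaks looked up in it were kept. The share of endogenous sites then fell from 75 to 25% in overexpressed HoxC5 and from 62.5 to 12.5% in Pbx4. That of all HoxC5 peaks in the shortened Pbx4 list fell from 76.1 to 2.56%. That of all Pbx4 peaks in the shortened HoxC5 list fell from 38.5 to 1.83%. These low shares thus do not compare the strongest peaks of both lists. With summits within 100 bp required, the last pair were 49.6 and 26.6%, and the endogenous shares were 62.5% in overexpressed HoxC5 and 37.5% in Pbx4. With q of at most 0.01 in all lists, chosen after seeing the data, 217 Pbx4 peaks were left, and Pbx4 peaks in HoxC5 came to 38.7%. Leaving out each endogenous replicate gave 75 to 100% in overexpressed HoxC5 and 62.5 to 100% in Pbx4, the upper values resting on the 2 peaks of replicate 2. The share near a TSS was 7.92% for HoxC5 and 1.55% for Pbx4 with the 5′ ends of genes only, and 28.2 and 16.1% within 5 kb. The AP-1 word was at 26.5% of HoxC5 and 32.6% of Pbx4 summits within 100 bp and at 9.40 and 9.63% within 25 bp, and the Meis word at 17.0 and 5.05% of Pbx4 summits. No paired analysis was possible because no test was run and the inputs that share replicate numbers with the endogenous libraries have no peak list.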
